A study of Rattus norvegicus with 6 samples.

Results

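The 31 genes described here encode the enzymes and regulators of cholesterol and fatty acid synthesis, chosen by gene name from the 25689 genes of the deposited table. They comprise 18 sterol enzymes, 6 sterol regulators and carriers and 7 fatty acid enzymes. All 31 matched the table, and 30 passed the filter on low counts that left 14919 genes to be tested. Elovl6, which lengthens palmitate, did not pass, with 1, 8 and 9 counts after ablation of the perirenal adipose tissue (PRATA) and 1, 4 and 4 counts after the sham operation.

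RNA came from neurons of the dorsal root ganglia (DRGs) at L1-L2, isolated from spontaneously hypertensive rats (SHRs), a strain labelled wild type at 6 to 8 weeks of age in both groups, although the methods of the study give an older age at purchase. One group of 3 samples was collected 4 weeks after PRATA, a surgical removal of the fat around the kidney, and the other group of 3 after a sham operation. The ganglia of both sides were digested and glia were reduced by their faster attachment to the dish, with no sort described that would select the neurons projecting to the fat. The design text names 3 rats in each group, but no label ties a sample to a rat, so p-values measure the spread between these samples only.

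The shallowest sample, sham replicate 2, had 5892967 counts and the deepest, sham replicate 1, had 15226952. A floor of 3 counts is worth 0.468 and 0.207 CPM in these samples, where CPM are counts scaled to a common library size. Levels are CPM scaled by edgeR's TMM method, with no correction for gene length, and a level is therefore compared between samples and not between genes. Rn7sl1 took the most counts of any gene in PRATA replicate 3 and sham replicate 1, at 5.40% and 5.63% of the total, while 5S_rRNA did so in the other samples. All 23 sensory neuron markers were detected in every sample, and their summed level was 16790 to 24730 CPM after PRATA and 11510 to 17780 CPM after the sham operation. Markers of satellite glia and immature Schwann cells also remained, with sums of 4753 to 7689 CPM after PRATA and 5555 to 9718 CPM after the sham operation. Most of these sums came from Apoe alone, at 2779 to 5229 CPM after PRATA and 3707 to 7473 CPM after the sham operation.

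Cholesterol is built from acetyl-CoA through mevalonate, isoprenoid units, squalene and lanosterol, and the last steps trim and reduce lanosterol. Fatty acids are built from the same acetyl-CoA, which Acly releases from citrate, and desaturases then add double bonds. Both branches are controlled by the transcription factors SREBP1 and SREBP2, which are escorted by SCAP and held in the endoplasmic reticulum by INSIG proteins when sterols are plentiful. In peripheral ganglia the myelin-forming and satellite glia are rich producers of lipid, while neurons make cholesterol for their membranes and also take it up from lipoproteins.

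In the quasi-likelihood test of edgeR, an unadjusted p under 0.05 was reached by 5 of the 30 genes in the higher direction (16.7%), beside 8.19% of all genes tested. These were the mevalonate arm genes Acat2, Mvk and Pmvk, the cholesterol carrier Stard4 and the citrate lyase Acly. In the lower direction it was reached by the desaturase Scd, 1 of 30 (3.33%), beside 10.1% of all genes. The PRATA and sham samples did not overlap for 11 genes that were higher (36.7%, beside 11.6% of all genes) and for 2 that were lower (6.67%, beside 11.2%). The log2 fold change was above 0 in 22 of 30 genes (73.3%), beside 52% of all genes, and its median was 0.27, beside 0.02 over all genes.

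No gene of the table had an adjusted p under 0.05 in this test with Benjamini-Hochberg adjustment, where 2734 genes (18.3%) had an unadjusted p under 0.05. DESeq2 gave 728 genes at an adjusted p under 0.05, limma voom with sample quality weights 1173 and limma-trend 0. Genes are termed called where the unadjusted p was under 0.05 in edgeR, or in another fit where one is named. With 3 samples against 3, an exact permutation test of a single gene cannot give a p below 0.10.

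**Figure D1:**
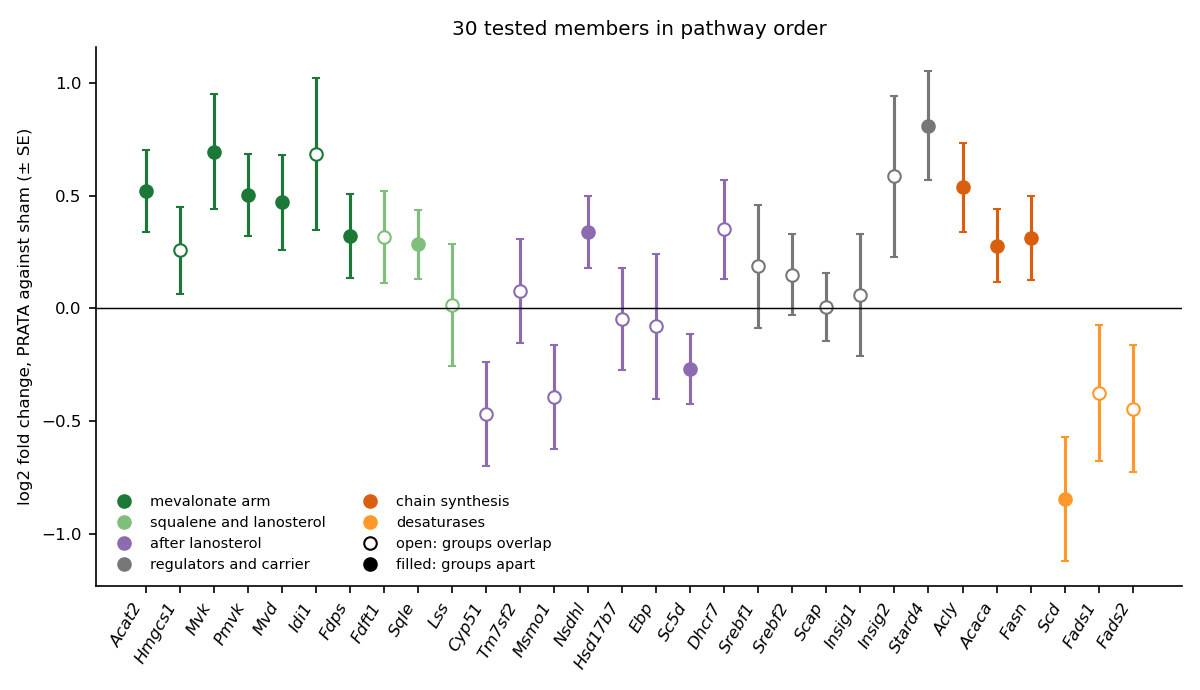
Log2 fold change (PRATA minus sham, edgeR) of the 30 genes tested, in the order of the pathway, with bars of 1 SE and a line at 0. The 7 genes of the mevalonate arm lie above 0, between 0.26 and 0.69, and the 3 desaturases lie below 0, between -0.84 and -0.38.

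The promoters of called genes are shown for the genes that have an entry in RefSeq's promoter table of build GRCr8, a set chosen after the values were seen. Each sequence holds the 250 bases before the gene's start, 5′ to 3′ on the gene's strand, and capitals mark CCAAT or its reverse complement ATTGG, the box bound by NF-Y, a factor that works with SREBPs at sterol genes. The build behind the deposited counts is not given in the sources used here, so these positions are RefSeq's alone. Acat2 lies on the plus strand at chr1:50100590-50100839, Mvk on the minus strand at chr12:47819504-47819753, Acly on the minus strand at chr10:85963632-85963881 and Scd on the minus strand at chr1:253231732-253231981.
Acat2: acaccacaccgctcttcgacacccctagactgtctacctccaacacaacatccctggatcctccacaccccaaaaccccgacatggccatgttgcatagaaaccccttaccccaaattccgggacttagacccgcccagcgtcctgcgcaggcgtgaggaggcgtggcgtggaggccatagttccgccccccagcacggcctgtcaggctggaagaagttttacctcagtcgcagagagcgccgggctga
Mvk: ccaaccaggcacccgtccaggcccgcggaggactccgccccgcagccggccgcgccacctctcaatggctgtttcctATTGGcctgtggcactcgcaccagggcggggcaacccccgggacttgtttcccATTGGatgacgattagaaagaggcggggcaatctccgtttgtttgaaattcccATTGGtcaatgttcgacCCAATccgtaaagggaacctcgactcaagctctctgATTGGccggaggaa
Acly: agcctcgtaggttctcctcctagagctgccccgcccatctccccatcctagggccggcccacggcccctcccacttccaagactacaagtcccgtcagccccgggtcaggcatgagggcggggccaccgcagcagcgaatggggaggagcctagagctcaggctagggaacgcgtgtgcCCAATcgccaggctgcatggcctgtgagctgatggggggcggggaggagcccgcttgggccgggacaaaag
Scd: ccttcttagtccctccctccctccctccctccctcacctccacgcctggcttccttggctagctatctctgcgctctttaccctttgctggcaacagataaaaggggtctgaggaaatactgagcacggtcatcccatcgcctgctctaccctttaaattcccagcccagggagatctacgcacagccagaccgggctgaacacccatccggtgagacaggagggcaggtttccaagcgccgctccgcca
Mvk held 5 such matches, whose first bases lay at -173, -120, -67, -50 and -14 from the start, Acly held 1 at -71, and Acat2 and Scd held 0.

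An entry was found for 24 of the 31 genes, leaving out Acaca, Elovl6, Fasn, Fdft1, Pmvk, Sqle and Stard4. In windows from 250 bases before to 50 after the start, CCAAT on either strand was found in 18 of these 24 genes (75.0%), beside 10873 of 27457 gene symbols (39.6%). These symbols are all those with an entry and were not limited to the genes tested here, so the shares cover unlike sets of genes. The share with CCAAT was 12 of 15 for the sterol enzymes (80.0%) and 2 of 4 for the fatty acid enzymes (50%). The core of the sterol regulatory element, spelled TCACNCCAC or GTGGNGTGA on the other strand, was in 0 of the 24 genes, beside 344 of 27457 gene symbols (1.25%). For letters this rare, 0 among 24 genes says little about these genes, and an overlap of CCAAT with the core could not be examined. These matches describe letters in a window and do not show binding.

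The mevalonate arm turns acetyl-CoA into farnesyl diphosphate, and all 7 of its genes had a log2 fold change above 0, with a median of 0.50. Called higher were 3 of 7 (42.9%, beside 8.19% of all genes), and 5 of 7 were higher without overlap of the groups (71.4%, beside 11.6%). The division of the pathway into steps was made with the values known. Acat2, the cytosolic thiolase that joins 2 acetyl-CoA units, was at 75.5, 86.5 and 78.0 CPM after PRATA (replicates 1, 2 and 3) and at 48.1, 67.6 and 52.0 CPM after the sham operation. Every PRATA sample lay above the highest sham sample, replicate 2. Means were 80.0 ± 5.78 and 55.9 ± 10.3 CPM (SD, n = 3), with a log2 fold change of 0.52 ± 0.18 (SE) and an adjusted p of 0.215 (edgeR, Benjamini-Hochberg).

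Mvk, the kinase that phosphorylates mevalonate, was at 7.23, 10.9 and 9.33 CPM after PRATA and at 6.22, 5.78 and 5.01 CPM after the sham operation. The groups did not overlap, although the counts behind these levels were low, at 56, 137 and 118 against 90, 37 and 53. Its log2 fold change of 0.69 ± 0.26 (SE) was the largest among the sterol enzymes (edgeR adjusted p = 0.224). Pmvk, the next kinase, was at 29.7, 34.8 and 36.7 CPM after PRATA and at 20.04, 26.8 and 24.7 CPM after the sham operation. Here too the lowest PRATA sample exceeded the highest sham sample, and the log2 fold change was 0.50 ± 0.18 with an edgeR adjusted p of 0.223.

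The other genes of the arm were not called. Mvd, which decarboxylates mevalonate diphosphate, was at 25.8, 30.04 and 26.4 CPM against 15.7, 18.9 and 24.8 CPM, which gave 0.47 ± 0.21 as log2 fold change (edgeR adjusted p = 0.282). Fdps, the farnesyl diphosphate synthase, was at 289, 288 and 279 CPM against 188, 245 and 253 CPM, which gave 0.32 ± 0.19 as log2 fold change (edgeR adjusted p = 0.390). The groups did not overlap in either gene, and the PRATA values of Fdps lay closer together than the sham values.
Idi1, the isopentenyl diphosphate isomerase, was at 149 and 150 CPM in PRATA replicates 1 and 2 and at 71.2 CPM in replicate 3, against 107, 62.6 and 60.7 CPM in the sham samples. PRATA replicate 3 thus lay below sham replicate 1, and the log2 fold change was 0.68 ± 0.34 (edgeR adjusted p = 0.318). Hmgcs1, the HMG-CoA synthase, was at 564, 546 and 439 CPM against 453, 432 and 411 CPM, which gave 0.26 ± 0.19 as log2 fold change (edgeR adjusted p = 0.495), with overlap of PRATA replicate 3 and sham replicate 1.

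**Figure D2:**
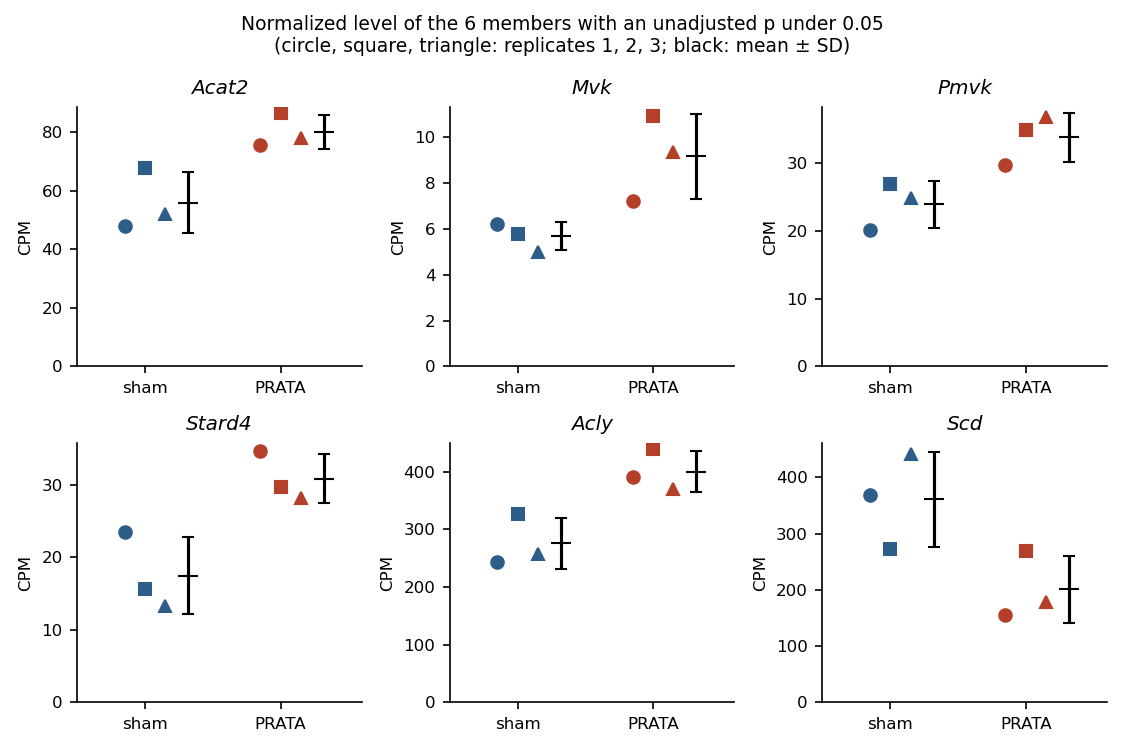
TMM-normalized CPM of the 6 called genes in each of the 3 PRATA and 3 sham samples, on linear axes that start at 0, with lines at the group means. Stard4, Acat2, Mvk, Pmvk and Acly are higher after PRATA and Scd is lower. For Scd, PRATA replicate 2 at 269 CPM and sham replicate 2 at 272 CPM nearly meet.

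From farnesyl diphosphate, Fdft1 makes squalene, Sqle oxidizes it and Lss closes the rings to lanosterol. None of these 3 genes was called, and their median log2 fold change was 0.28. Sqle was at 129, 119 and 133 CPM after PRATA and at 112, 105 and 96.1 CPM after the sham operation, without overlap (log2 fold change 0.28 ± 0.15, edgeR adjusted p = 0.352). The log2 fold change was 0.32 ± 0.20 for Fdft1 (edgeR adjusted p = 0.432) and 0.01 ± 0.27 for Lss (edgeR adjusted p = 0.985), both with overlap.

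The steps after lanosterol remove methyl groups and shift or reduce double bonds. None of their 8 genes was called, 3 had a log2 fold change above 0 and the median was -0.06. Cyp51, the lanosterol demethylase, was at 357, 431 and 358 CPM after PRATA and at 538, 403 and 644 CPM in the sham samples, which gave -0.47 ± 0.23 as log2 fold change (edgeR adjusted p = 0.316). Msmo1, the methyl sterol oxidase, was at 153, 156 and 106 CPM against 203, 139 and 203 CPM, which gave -0.39 ± 0.23 as log2 fold change (edgeR adjusted p = 0.391). In both genes sham replicate 2 was the lowest sham sample and lay below the highest PRATA sample, replicate 2.
Sc5d, the sterol desaturase, was at 127, 127 and 109 CPM against 151, 138 and 147 CPM and was lower without overlap (log2 fold change -0.27 ± 0.15, edgeR adjusted p = 0.381). Nsdhl, which removes the carboxyl group during demethylation, was at 43.2, 43.7 and 39.5 CPM against 32.4, 36.5 and 31.2 CPM and was higher without overlap (log2 fold change 0.34 ± 0.16, edgeR adjusted p = 0.303). The remaining genes of these steps overlapped between the groups. Dhcr7, the last reductase, had a log2 fold change of 0.35 ± 0.22, and the reductases Tm7sf2 and Hsd17b7 and the isomerase Ebp lay between -0.08 and 0.08.

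The early and late steps were also set against each other within each sample, a split chosen after the values were seen and therefore given without a test. The mean log2 CPM of the mevalonate arm minus that of the genes after lanosterol, each relative to the sham mean, was 0.60, 0.52 and 0.54 in PRATA replicates 1, 2 and 3. In sham replicates 1, 2 and 3 it was -0.03, 0.11 and -0.08. The 3 PRATA samples lay close together and above every sham sample, and the means differed by 0.56 (SD 0.042 after PRATA and 0.0995 after the sham operation, on the log2 scale). A library's scaling factor cancels in such a within-sample difference, apart from the prior count of 1. The mean of the chain synthesis genes minus that of the desaturases, taken the same way, was 1.19, 0.51 and 1.17 after PRATA and -0.25, 0.56 and -0.31 after the sham operation. These groups overlapped, since sham replicate 2 lay above PRATA replicate 2, although the means differed by 0.95. The neuron markers minus the satellite glia markers differed by 0.84 between the group means, also with overlap, at 1.15, 0.02 and 1.36 against -0.58, 0.76 and -0.19.

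**Figure D3:**
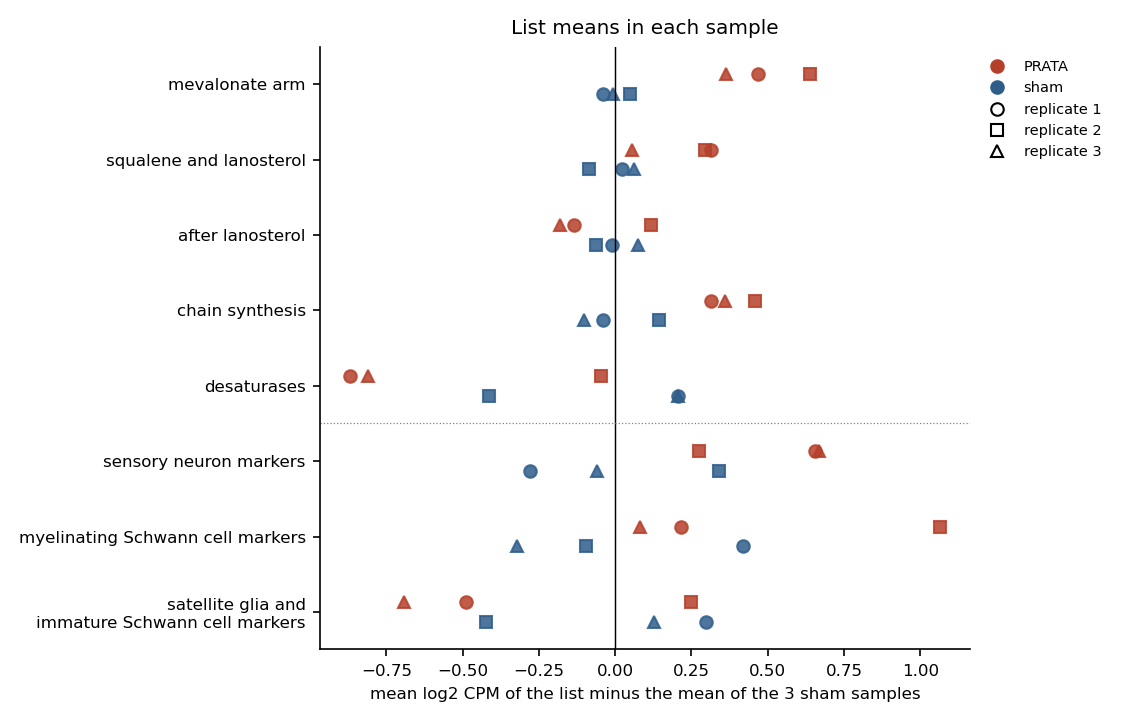
Mean log2 CPM of each group of genes in each sample, relative to the mean of the sham samples, for the pathway steps and for marker lists. The mevalonate arm is at 0.36 to 0.64 after PRATA and -0.04 to 0.05 after the sham operation. The genes after lanosterol, the desaturases and the satellite glia markers are higher in PRATA replicate 2 than in the other PRATA samples. They are also lower in sham replicate 2 than in the other sham samples.

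Of the 6 sterol regulators and carriers, all had a log2 fold change above 0, although that of Scap was below 0 with other scalings. The median was 0.17 and 1 was called higher (16.7%, beside 8.19% of all genes). This was Stard4, which carries cholesterol between membranes through the cytosol and is itself a sterol-regulated gene. It was at 34.6, 29.6 and 28.2 CPM after PRATA (replicates 1, 2 and 3) and at 23.5, 15.6 and 13.3 CPM after the sham operation. Each PRATA sample exceeded each sham sample, and means were 30.8 ± 3.37 and 17.5 ± 5.34 CPM (SD, n = 3). The log2 fold change was 0.81 ± 0.24 (SE) with an edgeR adjusted p of 0.175, the smallest among the 30 genes.

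The transcription factors and their retention machinery overlapped between the groups. Srebf2, which encodes SREBP2, was at 200, 220 and 244 CPM after PRATA and at 226, 180 and 193 CPM after the sham operation (log2 fold change 0.15 ± 0.18, edgeR adjusted p = 0.689). Insig2 was at 3.87, 5.66 and 4.19 CPM against 3.25, 3.90 and 2.08 CPM, from counts of 30, 71 and 53 against 47, 25 and 22 (log2 fold change 0.59 ± 0.36, edgeR adjusted p = 0.411). In both genes PRATA replicate 1 lay below the highest sham sample, and Insig2 rests on few counts. Srebf1, Insig1 and Scap had log2 fold changes of 0.19 ± 0.27, 0.06 ± 0.27 and 0.01 ± 0.15, and that of Scap was -0.017 with DESeq2's size factors and -0.026 with library size alone.

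In the fatty acid branch, Acly was called higher and Scd lower, each 16.7% of the 6 genes tested, beside 8.19% and 10.1% of all genes. Above 0 were 3 of the 6 genes, and the median log2 fold change was -0.05. Acly, the ATP citrate lyase that supplies cytosolic acetyl-CoA to both branches, was at 390, 440 and 371 CPM after PRATA and at 243, 327 and 258 CPM after the sham operation. The lowest PRATA sample was above the highest sham sample, replicate 2, and means were 400.3 ± 35.4 and 276 ± 44.6 CPM (SD, n = 3). The log2 fold change was 0.54 ± 0.20 with an edgeR adjusted p of 0.226. Acaca, the acetyl-CoA carboxylase, was at 129, 121 and 136 CPM against 105, 119 and 94.6 CPM (log2 fold change 0.28 ± 0.16, edgeR adjusted p = 0.389). Fasn, the synthase that assembles palmitate, was at 396, 504 and 432 CPM against 375, 357 and 342 CPM (log2 fold change 0.31 ± 0.19, edgeR adjusted p = 0.404). Neither was called, but in both the groups did not overlap.

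All 3 desaturases were below 0, with a median log2 fold change of -0.44. Scd, the stearoyl-CoA desaturase that makes oleate, was at 155, 269 and 179 CPM after PRATA (replicates 1, 2 and 3) and at 369, 272 and 441 CPM after the sham operation. PRATA replicate 2 was the highest PRATA sample and sham replicate 2 the lowest sham sample, and the groups were separated by the gap between these values alone. Means were 200.8 ± 59.8 and 361 ± 85 CPM (SD, n = 3), with a log2 fold change of -0.84 ± 0.28 and an edgeR adjusted p of 0.195. Scd has close relatives in the rat, and how reads shared among them were counted is not given in the sources used here.

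Fads1, a desaturase of polyunsaturated fatty acids, was at 131, 229 and 124 CPM after PRATA and at 256, 148 and 225 CPM after the sham operation. Fads2, its partner earlier in that pathway, was at 44.4, 81.4 and 46.0 CPM against 89.8, 58.2 and 85.8 CPM. In both genes PRATA replicate 2 lay among the sham values and sham replicate 2 among the PRATA values, and log2 fold changes were -0.38 ± 0.30 (edgeR adjusted p = 0.529) and -0.44 ± 0.28 (edgeR adjusted p = 0.429). In all 3 desaturases PRATA replicate 2 was thus the highest PRATA sample and sham replicate 2 the lowest sham sample.

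That order of samples was shared by the satellite glia markers, but was not particular to them. The mean of the genes after lanosterol was -0.13, 0.12 and -0.18 after PRATA and -0.01, -0.06 and 0.07 after the sham operation. The regulators and carriers and the genes of sterol uptake and lysosomal export had the same order. What the order reflects was not tested. The mean log2 level of the desaturases, relative to the sham mean, was -0.87, -0.05 and -0.81 in the PRATA samples and 0.21, -0.41 and 0.21 in the sham samples. The mean over the 14 markers of satellite glia and immature Schwann cells was -0.49, 0.25 and -0.69 against 0.30, -0.42 and 0.13. Over the 23 sensory neuron markers it was 0.66, 0.27 and 0.67 against -0.28, 0.34 and -0.06. PRATA replicate 2 had the highest glial and desaturase means and the lowest neuronal mean of its group, and sham replicate 2 had the lowest glial and desaturase means and the highest neuronal mean of its group.

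Each marker list was counted as the genes above were. All 23 neuron markers had a log2 fold change above 0 (median 0.46) and 6 were called higher (26.1%, beside 8.19% of all genes). Of 14 satellite glia and immature Schwann cell markers, 10 were below 0 (median -0.40), with Sox10 called lower at -1.63 ± 0.38 and Ngfr, which many neurons also express, called higher at 0.75 ± 0.23, each 7.14% of the list beside 10.1% and 8.19%. Of 14 myelinating Schwann cell markers 11 were above 0 (median 0.50), with Prx and Ncmap called higher (14.3%, beside 8.19%) and Fa2h, a fatty acid hydroxylase of myelin lipids, called lower at -1.31 ± 0.38 (7.14%, beside 10.1%).
Fibroblast markers were mostly lower (9 of 12 below 0, with Postn and Mgp called lower, 16.7% beside 10.1%), and of the macrophage and endothelial markers 9 of 14 and 8 of 9 were above 0, with Lyz2 (7.14% of its list) and Vwf (11.1%) called higher, shares near the 8.19% of all genes. The summed levels of myelin markers were 1056 to 1919 CPM after PRATA and 1032 to 1424 CPM after the sham operation, and those of fibroblast markers were 1219 to 3585 and 2226 to 3221 CPM. The fibroblast sums include Thy1, also counted as a neuron marker, at 522 to 888 CPM after PRATA and 468 to 722 CPM after the sham operation. Macrophage markers summed to 93.5 to 338 and 89.9 to 213 CPM, and endothelial markers to 73.2 to 148 and 29.7 to 174 CPM. No marker matched was at 0 in any sample. The part of these cell types in the results was not tested, and in bulk samples fewer cells of a type and less RNA per cell cannot be told apart.

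Expressed against the mean of the neuron markers in the same sample, 5 of the 30 genes were above 0 and 25 below, with a median difference of -0.27 on the log2 scale. On that scale 0 genes were higher without overlap, and Tm7sf2 and Sc5d were lower without overlap. Stard4 had a difference of 0.32, Mvk of 0.14 and Acat2 of -0.0029, while Scd was at -1.39 with overlap. Against the mean of the satellite glia markers the picture turned, with 25 genes above 0 and a median of 0.58. Mvk, Idi1, Srebf1 and Stard4 were then higher without overlap, and Scd, at -0.54, was lower without overlap. Against the myelin markers 8 genes were above 0, with a median of -0.19, and 6 were lower without overlap. Subtracting a list mean moves the group difference of every gene of the table by the same amount. The list means differed between PRATA and sham by 0.53 for neuron, -0.31 for satellite glia and 0.45 for myelin markers. The counts on these scales largely follow from those shifts. Shares of all genes on the same scales were not computed. Whether these counts, including those without overlap, are particular to the synthesis genes was therefore not tested.

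**Figure D4:**
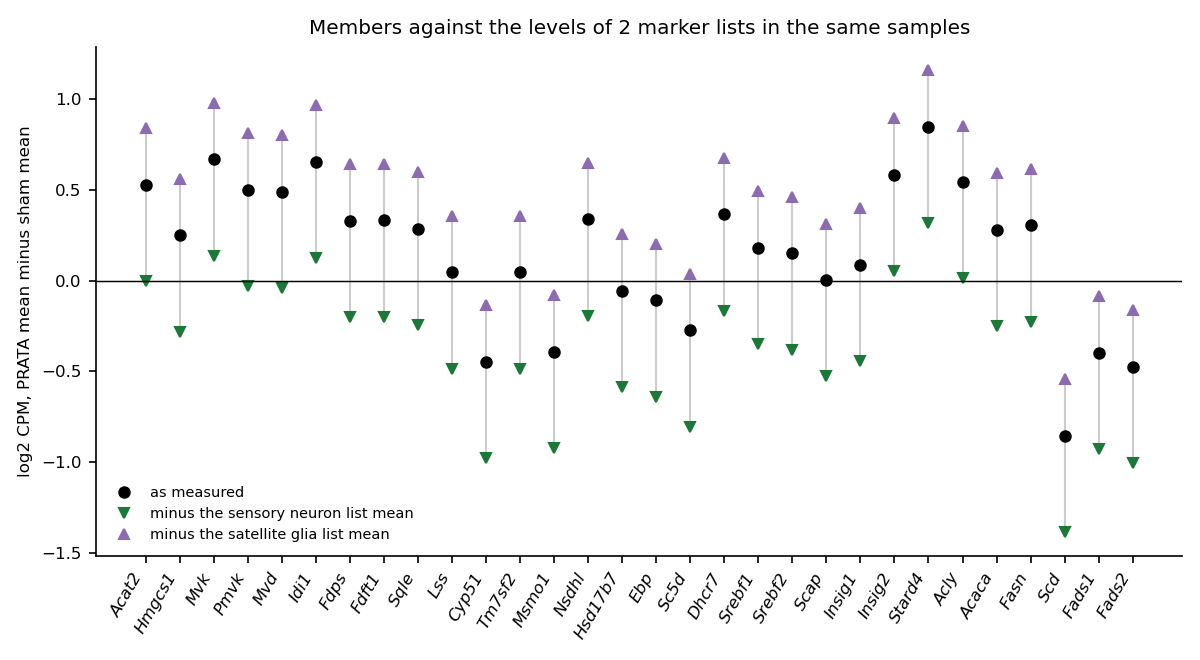
Difference between PRATA and sham (log2 scale) of the 30 genes as CPM and relative to the mean of the neuron or satellite glia markers of the same sample. Medians are -0.27 relative to neuron markers and 0.58 relative to satellite glia markers, while Cyp51, Msmo1, Scd, Fads1 and Fads2 are below 0 on every scale.

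The calls differed in how far they rested on single samples. Stard4 had an unadjusted p under 0.05 in all 16 alternative fits, with log2 fold changes of 0.65 to 1.14 and adjusted p between 0.0408 (voom) and 0.551. Scd did so in 12 of 16, with log2 fold changes of -1.11 to -0.67 and adjusted p between 0.0388 (voom) and 0.560, and at 0.0499 in DESeq2. Its call was lost without PRATA replicate 1 (log2 fold change -0.71), PRATA replicate 3 (-0.77) or sham replicate 3 (-0.67). Acat2 was called in 11 of 16 fits, Mvk in 11, Pmvk in 10 and Acly in 9, with the direction kept in all 16.
Without PRATA replicate 2 all of these 4 genes lost the call, at log2 fold changes of 0.46 for Acat2, 0.55 for Mvk, 0.48 for Pmvk and 0.47 for Acly. Acat2 also lost it without sham replicate 1 (0.40) or sham replicate 3 (0.48). Mvk lost it without PRATA replicate 3 (0.68) or sham replicate 3 (0.62), and Pmvk without PRATA replicate 3 (0.44) or sham replicate 1 (0.37). Acly lost it without PRATA replicate 1 (0.54), sham replicate 1 (0.44) or sham replicate 3 (0.50).
With the replicate number as a block, Mvk (0.68), Pmvk (0.50) and Acly (0.54) were not called, Idi1 was, and Acat2, Stard4 and Scd were again. When library size alone set the scale, Acat2 (0.48), Pmvk (0.46) and Acly (0.49) were not called. Without PRATA replicate 3 and sham replicate 1, the samples led by Rn7sl1, Stard4 and Idi1 were called higher and Scd, at -0.76, was not called.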

How the data were processed

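The deposited table holds raw counts of reads per gene for 6 samples, made by the authors without normalization. The submitters' processing notes name STAR 2.7.3a, RSEM and DESeq2, whereas the methods of the study describe HISAT2, StringTie and FPKM values from Cuffdiff; which of these made the counts, the genome build and the strand setting are not given in the sources used here. All sample columns were used.

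Genes were kept by edgeR's filterByExpr (minimum count 10, minimum total 15) and scaled by TMM. PRATA was compared with sham by the two-sided quasi-likelihood test with Benjamini-Hochberg adjustment over all 14919 genes (R 4.3.3, edgeR 4.0.16, limma 3.58.1, DESeq2 1.42.0), since the FPKM comparison of the study needs other input. Mean log2 levels used a prior count of 1. Figures were drawn with matplotlib 3.10.9. On counts simulated for this comparison over 14919 genes, edgeR recovered 88% of 200 genes changed by 2 on the log2 scale, with 11 false calls. That change is larger than any measured for the synthesis genes, and smaller ones were not simulated. DESeq2 made 36 false calls there, and 10 calls at an adjusted p under 0.05 where no gene was changed, against 0 for edgeR.

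The genes, the wider lists and the markers were chosen with earlier results of these data known, so lists are described by counts and medians, without a test. Values per sample are given for called genes, the 3 smallest p of each of the 3 lists and the largest change of each, and in the wider lists for called genes, at most 4 a list, apart from 1 gene that is not reported here; values of further genes were added after they were seen. Where values of several samples are listed, they follow replicates 1, 2 and 3. Alternatives were other scalings, filters and tests, the replicate block and each sample left out. Intervals of counting error, such as the 3 counts given as a floor, cover counting error only.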

Additional observations from a re-analysis of the deposited data

How the results depend on the processing

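Of the 480 fits of the 30 genes under 16 alternatives, 401 kept direction and side of an unadjusted p of 0.05, 22 passed it newly, 27 no longer passed it and 30 changed sign. Against 1222 genes higher and 1512 lower in edgeR, voom with sample quality weights gave 2324 (15.6%) and 2282 (15.3%), with 1173 at an adjusted p under 0.05. Of the 30 synthesis genes voom called 10 higher and 3 lower, 2 at an adjusted p under 0.05. DESeq2 gave 728 at an adjusted p under 0.05, 1 of them a synthesis gene. It called 2 of the 30 lower, beside 11% of all genes. Library size alone left 2 of the 30 called higher, against 5, beside 5.6% of all genes. Without a filter the median of the fatty acid enzymes was 0.29, since Elovl6 entered. The 4 samples without PRATA replicate 3 and sham replicate 1, an alternative chosen after seeing the data, gave 13 genes at an adjusted p under 0.05. Of the 30 synthesis genes 2 were called higher there and 0 lower, beside 5.98% and 6.9% of all genes. The median of the regulators and carriers was 0.42 in these 4 samples.

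The groups share replicate numbers that no label ties to a litter or day, and deviations of same-numbered samples correlated at -0.348, -0.037 and -0.349. With this number as a block, 621 were higher (4.16%) and 907 lower (6.08%) among all genes, and 3 of the 30 synthesis genes were called higher.

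Changes of sign were found for 7 genes with log2 fold changes of 0.19 or less in size. Lss was at -0.0076 with DESeq2's size factors or its test and at -0.072 with voom. Scap was at -0.017 with DESeq2's size factors, -0.017 with its test, -0.026 with library size alone, -0.00045 with at least 10 counts in every sample, -0.024 with voom and -0.071 in the 4 samples. Tm7sf2 was at -0.022 with voom and -0.21 in the 4 samples, where Hsd17b7 was at 0.016. With each sample left out in turn, log2 fold changes ran from -0.22 to 0.18 for Lss, -0.16 to 0.22 for Insig1, -0.065 to 0.063 for Scap, -0.083 to 0.36 for Srebf1, -0.11 to 0.21 for Tm7sf2, -0.21 to 0.056 for Hsd17b7 and -0.38 to 0.14 for Ebp. Genes higher then numbered 548 (3.47%, without PRATA replicate 1) to 2073 (13.4%, without sham replicate 2). Genes lower numbered 858 (5.44%) to 2181 (14.1%), and genes at an adjusted p under 0.05 numbered 0 to 721. Of the 30 synthesis genes, 1 (without PRATA replicate 2) to 8 were called higher and 0 to 3 lower. The cause of these differences was not tested. Depth limits Mvk, Insig2 and Elovl6 most.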

Other observations

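The wider lipid genes were counted in 7 lists of 90 genes around the synthesis pathway, of which 86 passed the filter. Called genes were 4 higher (4.65%, beside 8.19% of all genes) and 3 lower (3.49%, beside 10.1%), and 43 of 86 had a log2 fold change above 0.

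Carriers and enzymes that supply carbon to fatty acids held 2 called genes, both higher without overlap. Slc25a1, the mitochondrial citrate carrier that delivers the substrate of Acly, was at 45.1, 52.1 and 59.6 CPM after PRATA (replicates 1, 2 and 3) and at 31.2, 35.3 and 34.0 CPM after the sham operation (log2 fold change 0.64 ± 0.17, edgeR adjusted p = 0.168). Acacb, the acetyl-CoA carboxylase of mitochondria, was at 7.74, 10.2 and 7.51 CPM against 5.53, 4.68 and 5.20 CPM (0.72 ± 0.25, edgeR adjusted p = 0.211). These were the 2 called of 17 genes tested for fatty acid supply and other elongases and desaturases (11.8%, beside 8.19% of all genes, median 0.17). The related desaturase Scd2 stood at -0.23 ± 0.26 as log2 fold change (edgeR adjusted p = 0.660). Of 18 genes of fatty acid activation and oxidation 1 was called, in the higher direction (5.56%, beside 8.19% of all genes). This was Acsl3, which activates fatty acids for lipid droplets (0.45 ± 0.17, edgeR adjusted p = 0.233).

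On the sterol side, all 9 genes of SREBP processing and sterol-regulated degradation were below 0 (median -0.20). Lrp8, a receptor for apolipoprotein E and reelin, was at 94.5, 84.6 and 111 CPM after PRATA and at 202, 111 and 210 CPM after the sham operation (-0.85 ± 0.26, edgeR adjusted p = 0.183). It was the 1 gene called of 11 for uptake and lysosomal export (9.09%, beside 10.1% of all genes lower, median -0.21). Sham replicate 2 was again the lowest sham sample and met the PRATA range. Of 8 genes of esterification and oxidation, 1 was called lower and 1 higher (each 12.5%, beside 10.1% and 8.19% of all genes). Soat1, which esterifies cholesterol, was lower (-0.60 ± 0.22, edgeR adjusted p = 0.221). Ch25h, which makes an oxysterol, was higher with overlap (1.35 ± 0.57, edgeR adjusted p = 0.264). The counts of Ch25h were low, at 35, 112 and 24 after PRATA against 29, 17 and 15, with PRATA replicate 2 the highest. None of the 12 genes of the isoprenoid branches (median -0.01) or the 11 of efflux and the liver X receptor (median -0.02) was called.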
